A study of Rattus norvegicus with 2 samples.

Results

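Notch signalling links neighbouring cells. A ligand on the surface of a cell, such as Dll1 or Jag1, binds a Notch receptor on the next cell, the receptor is cut by Adam10 and then by γ-secretase, and the freed intracellular part enters the nucleus, where it joins the DNA-binding protein Rbpj and turns on target genes. Hes and Hey proteins are repressors of transcription encoded by such targets, and Nrarp is a target that in turn limits the pathway by binding the same nuclear complex. In the nervous system the pathway is known for holding glial precursors back from maturing, and in connective tissue for shaping mural and mesenchymal cells.

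The genes described are the receptors Notch1, Notch2 and Notch3, the ligands Dll1 and Jag1, and the target genes Nrarp, Hes1, Hes5, Hey1 and Heyl, taken as a list of names. They are 10 of the 25399 genes of the data, and all 10 symbols were found. The list was chosen by the ratio of normalized Nrarp UMIs between the libraries in an earlier look at these data, in which Nrarp was low in Nuc1 astrocyte-like cells. Its difference between the genotypes is therefore a description, and the question was whether the other targets were lower with it. The data are single-cell RNA sequencing counts of optic nerve cells from WT (Sprague Dawley) rats and from Nuc1 rats, which carry a spontaneous insertion in Cryba1, the gene of βA3/A1-crystallin. There was 1 library per genotype, both labelled postnatal day 7, and the study's methods call the cells mixed primary cultures of glia. How many animals were pooled, and how long the cells had been cultured, is not given in the sources used here.

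The WT library held 34517542 UMIs (unique molecular identifiers, each marking 1 captured RNA molecule) in 2107 cell barcodes and the Nuc1 library 35794685 in 1929. Filtering left 1963 WT cells (median depth 14050 UMIs) and 1782 Nuc1 cells (median depth 16577.5 UMIs), and 2 barcodes occurred in both libraries. Cryba1 had 0 UMIs in all barcodes of both libraries, so the genotype labels could not be checked from it. Levels are in CPM: within a library, a gene's UMIs were added up across all cells of a group and divided by the UMIs of all genes there, per 1000000, so that each value stands for 1 library. Since each genotype is a single library, the differences below could not be set against replicates, and no p-value is given. Values in brackets after a level, ratio or share are exact 95% intervals (Poisson, conditional on the summed count, and binomial) that cover counting error only. A gene is called lower or higher in Nuc1 when its CPM differed at least 2-fold, among genes with at least 20 UMIs in the group.

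Clustering of both libraries together gave 10 clusters, numbered 0 to 9. Cluster 3 was the astrocyte-like cluster, with Gfap, Hspb1, Fabp7 and Aqp4 among its 10 leading genes, and held 106 WT and 349 Nuc1 cells. Clusters 0, 1, 2, 4 and 5 are called collagen-rich, since Col1a1, Col3a1, Dcn and Lum together had between 7608 CPM (cluster 5) and 10671.5 CPM (cluster 1) in them. The limit of 5000 CPM was set after these values were seen, and the next cluster, number 8, had 2617 CPM. Clusters 0, 1, 2 and 4 were led by Ccn3 and Rspo3, by Actg2 and Penk, by Cldn11 and Thbd, and by Inmt and Cyp26b1, while cluster 5 was led by genes of cell division. Together they held 1743 WT and 1265 Nuc1 cells, but cluster 4 had 54 WT and 367 Nuc1 cells and cluster 1 had 565 WT and 207 Nuc1 cells, so values are also given cluster by cluster. Cluster 6 was motile cilia-like (15 WT and 105 Nuc1 cells), cluster 7 oligodendrocyte lineage-like, from Bcas1, Olig1 and Cnp (52 and 10 cells), cluster 9 macrophage or microglia-like (24 and 22 cells), and cluster 8, led by Ttr and Gldn, stayed unnamed (23 and 31 cells).

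Rbpj binds DNA at the letters TGGGAA, and the promoters of the members were searched for them on both strands. The windows reached from 250 bases before to 50 bases after the transcription start in RefSeq's promoter table (build GRCr8), and 25.7% of 33469 such windows held the motif. Hes1, Hes5 and Dll1 had 2 matches each, Notch3 had 1, and the windows of Nrarp (chr3:28390495-28390794, plus strand), Notch1, Notch2, Heyl and Jag1 had none, while no window was matched for Hey1. Hey2, a target gene outside the list that is used below, had 2. The matches of 3 targets, all upstream of the start, are shown with 30 bases each and the motif in capitals, since these targets went different ways between the libraries: Hes1 was lower in Nuc1, Hey2 was not lower in the astrocyte-like cells, and Hes5 was almost undetected. The letters of a longer form, TGTGGGAA, found in 1.80% of the windows, are complete in the first Hes1 site and in both Hes5 sites. The form GTGGGAA, found in 6.29% of the windows, is also present in the second Hey2 site and in 1 Dll1 site.
Hes1, chr11:84213151-84213180, minus strand: tgaaagttactgTGGGAAagaaagtttggg
Hes1, chr11:84213137-84213166, minus strand: ggaaagaaagttTGGGAAgtttcacacgag
Hes5, chr5:170804327-170804356, minus strand: cacaatgtccgggctgTGGGAAcgcgctcg
Hes5, chr5:170804467-170804496, plus strand: ggccgctgagtgTGGGAAcggccgcggcgc
Hey2, chr1:28640913-28640942, minus strand: tccccgcctcccTGGGAAcgtctggctttc
Hey2, chr1:28641028-28641057, plus strand: tgggctgcggcgTGGGAAagagcctccagg

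The receptors Notch1 and Notch2 had UMIs in every cluster of both libraries but were spread differently. Notch1 (ENSRNOG00000019322) was highest in the oligodendrocyte lineage-like cluster, with 252 CPM (218 to 289) in WT and 169 CPM (99.9 to 266) in Nuc1, and in the astrocyte-like cells, with 219 CPM (202 to 237) and 122.7 CPM (116 to 130). The intervals of these neighbours in the order overlapped in each library. The motile cilia-like cluster followed in WT with 105 CPM (76.2 to 141), whose interval overlapped that of cluster 8 at 70.4 CPM, and all 5 collagen-rich clusters lay lower, between 6.55 CPM in cluster 0 and 30.5 CPM in cluster 5. Notch2 (ENSRNOG00000018835) was more even. In the WT library 7 clusters lay between 59.8 CPM (cluster 5) and 89.0 CPM (cluster 2), with each neighbour in the order overlapping the next, and the macrophage or microglia-like, motile cilia-like and oligodendrocyte lineage-like clusters were lower, at 29.6, 26.2 and 10.2 CPM. Notch3 (ENSRNOG00000004346), a receptor known from mural cells, had only 7 UMIs in all WT cells and 3 in all Nuc1 cells, 0.207 and 0.0865 CPM, and no more than 3 UMIs in any cluster of either library.

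**Figure D1:**
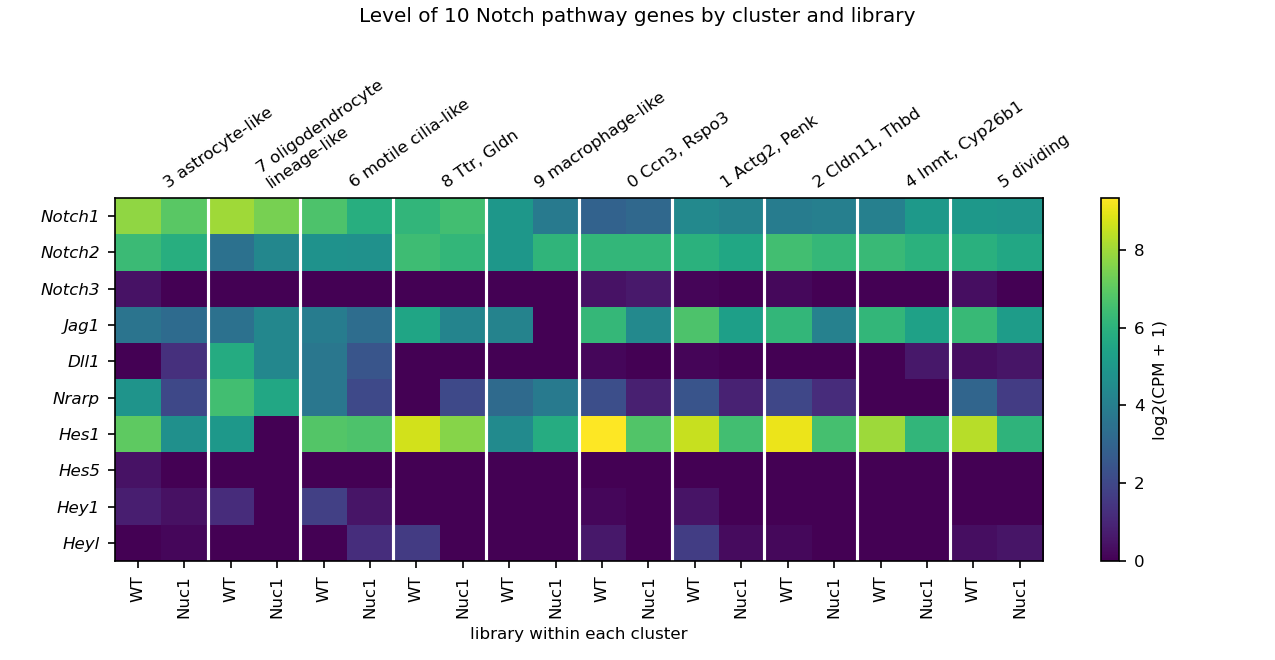
Levels of the 10 genes (rows) in each cluster and library (columns, WT left and Nuc1 right within a cluster), as log2(CPM + 1), so that 0 CPM is 0 on the colour scale. Hes1 is brightest in the WT columns of the collagen-rich clusters on the right, Notch1 in the astrocyte-like and oligodendrocyte lineage-like clusters on the left, and Notch3, Hes5, Hey1 and Heyl are near 0 in most columns.

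The ligands lay in different cells. Jag1 (ENSRNOG00000007443) was highest in the collagen-rich clusters of the WT library, from 70.5 CPM (52.4 to 92.996) in cluster 4 to 105 CPM (98.4 to 111) in cluster 1, and had 11.2 CPM (7.58 to 15.8) in WT astrocyte-like cells. Cluster 1 stood above the next cluster without overlap, and the other 4 collagen-rich clusters could not be ordered. Dll1 (ENSRNOG00000059984) had most of its WT UMIs, 41 of 49, in the oligodendrocyte lineage-like cluster, where it had 52.1 CPM (37.4 to 70.7), while the WT astrocyte-like cells had 0 UMIs, which allows up to 1.08 CPM at a limit of 3 counts. The 5 collagen-rich clusters together had 3 Dll1 UMIs in WT and 4 in Nuc1. In Nuc1, Dll1 had 13 UMIs in the astrocyte-like cells, or 1.45 CPM (0.774 to 2.49), and with 0 of the WT UMIs the interval of the log2 ratio reached down to −0.08, so a difference was not detectable at this depth. In the oligodendrocyte lineage-like cluster the 2 Nuc1 UMIs of Dll1 came from 1 of 10 cells, and the log2 ratio of −1.48 had an interval of −4.57 to 0.47. The related ligands were sparser still, with 1 UMI of Dll4 in each library and 15 UMIs of Jag2 in WT and 11 in Nuc1.

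Among the targets, Nrarp and Hes1 were nearly opposite in where they were high. Nrarp (ENSRNOG00000009354) in the WT library was highest in the oligodendrocyte lineage-like cluster, with 89.0 CPM (69.4 to 112), then in the astrocyte-like cells, with 27.7 CPM (21.9 to 34.6), and these intervals did not overlap. It had 2.98 to 7.19 CPM in collagen-rich clusters 0, 1, 2 and 5, and 0 UMIs in cluster 4 of both libraries, which allows up to 4.23 CPM in WT and 0.527 CPM in Nuc1. Hes1 (ENSRNOG00000001720) in WT was highest in collagen-rich clusters 0, with 643 CPM (625 to 661), and 2, with 529 CPM (511 to 547), followed by the unnamed cluster 8 with 410 CPM (355 to 471), while the astrocyte-like cells had 129 CPM (116 to 143) and the oligodendrocyte lineage-like cluster 30.5 CPM (19.6 to 45.4). Heyl (ENSRNOG00000015318) had 30 UMIs in all WT cells, 23 of them in cluster 1, which was led by the contractile gene Actg2. Hey1 (ENSRNOG00000011593) had 9 UMIs in WT and 4 in Nuc1, and Hes5 (ENSRNOG00000013850), a target typical of neural precursors, had 1 UMI in a WT astrocyte-like cell and none elsewhere.

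In astrocyte-like cells Nrarp was lower in the Nuc1 library. It had 77 UMIs in 29 of 106 WT cells and 27 UMIs in 20 of 349 Nuc1 cells, or 27.7 CPM (21.9 to 34.6) against 3.02 CPM (1.99 to 4.39), a log2 ratio of Nuc1 over WT of −3.20 (−3.89 to −2.55), 9.17-fold lower. Among the 10600 genes that reached 20 UMIs there, 0.245% had a lower ratio, 7.24% were called lower and 4.12% higher, and the median log2 ratio was −0.12. After every cell was thinned to 10000 UMIs, which left out 2 WT and 22 Nuc1 cells, 19.2% (12.2 to 28.1) of WT and 2.75% (1.27 to 5.16) of Nuc1 astrocyte-like cells had a UMI of Nrarp, against 27.4% and 5.73% unthinned. In the macrophage or microglia-like cluster, taken as a cell type that should lack Nrarp, 2 of 24 WT and 1 of 22 Nuc1 cells had a UMI unthinned, at median depths of 8231 and 1807.5 UMIs, and 1 of 10 WT and 1 of 2 Nuc1 cells thinned, too few cells to set a background. In Nuc1 cells of cluster 4, 0 of 320 thinned cells had a UMI of Nrarp (0 to 1.15%), an interval below that of the Nuc1 astrocyte-like cells.

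Hes1 was also lower in Nuc1 astrocyte-like cells. It had 359 UMIs in WT and 220 in Nuc1, or 129 CPM (116 to 143) against 24.6 CPM (21.5 to 28.1), a log2 ratio of −2.39 (−2.64 to −2.15), 5.25-fold lower, with 0.915% of genes lower. A coarser clustering or grouping of cells by markers without clustering, both of which widened the group, gave −1.67 and −1.66 for Hes1. Thinned, 59.6% (49.5 to 69.1) of WT and 18.7% (14.6 to 23.3) of Nuc1 cells had a Hes1 UMI (71.7% and 28.9% unthinned). The macrophage or microglia-like cells had 5 Hes1 UMIs in WT, 21.1 CPM (6.86 to 49.3), and 4 in Nuc1, 53.6 CPM (14.6 to 137), too few to set a background. Hey2 (ENSRNOG00000013364), a related repressor and target, went the other way, from 22.3 CPM (17.1 to 28.6) in WT to 37.9 CPM (34.0 to 42.2) in Nuc1, a log2 ratio of 0.77 (0.37 to 1.18), though with at most 10% mitochondrial UMIs, which left 27 WT cells, it was 0.14 with an interval that includes 0. Hes5, Hey1 and Heyl had 1, 5 and 1 UMIs in these cells over both libraries and could not be compared. Of the targets other than Nrarp with at least 20 UMIs, 1 of 2 was therefore called lower, beside 7.24% of all genes. Their median log2 ratio was −0.81, beside −0.12 for all genes. This median is the midpoint of Hes1 (−2.39) and Hey2 (0.77), which had opposite signs, so it does not describe either gene.

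**Figure D2:**
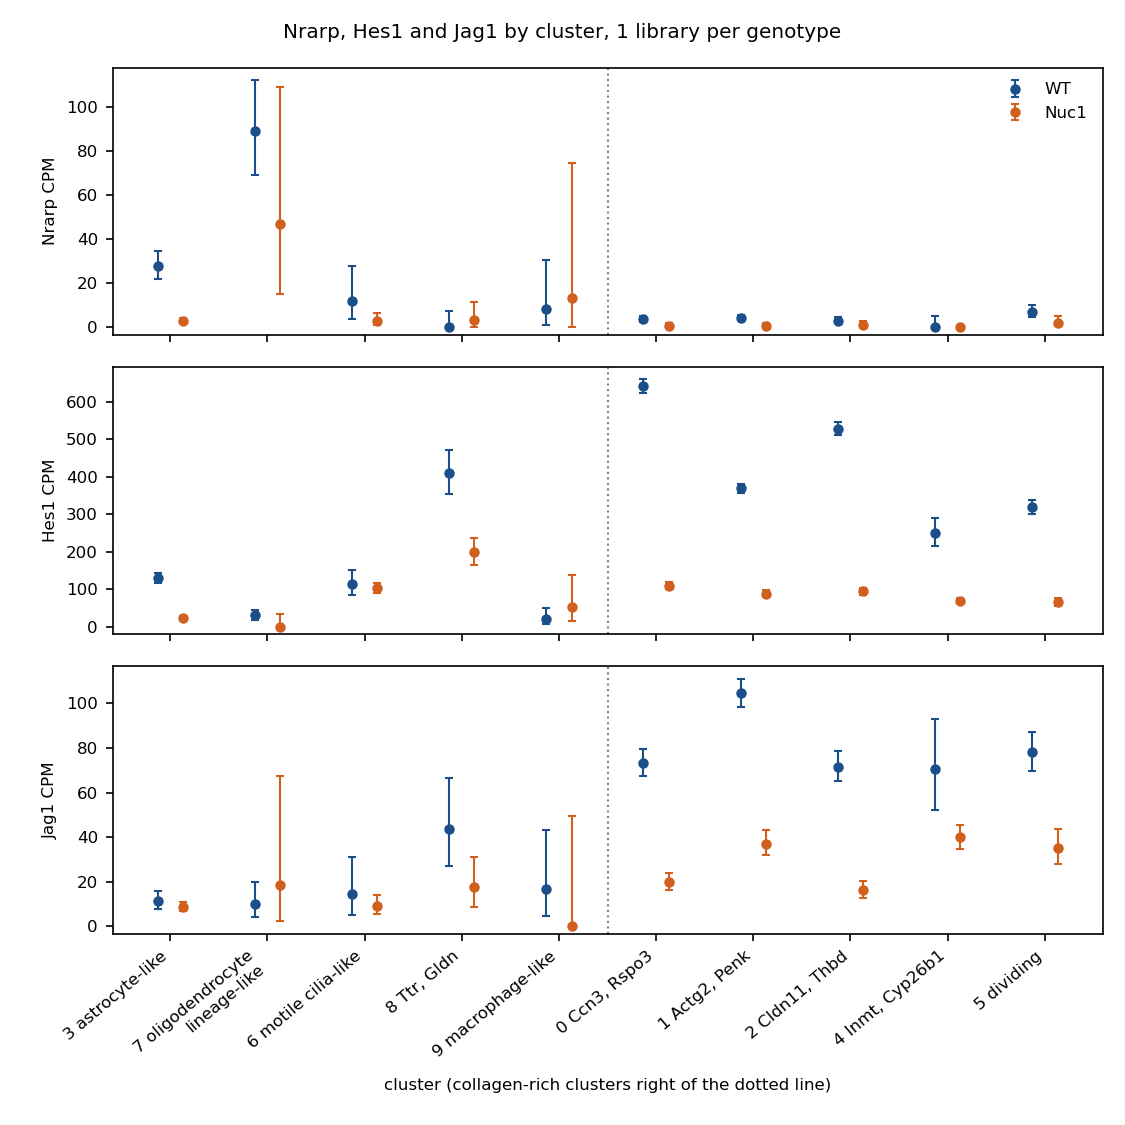
Levels of Nrarp, Hes1 and Jag1 (CPM, linear axes from 0) in each cluster for the WT and Nuc1 libraries; points are the level of 1 library and bars its exact 95% Poisson interval. In all 5 collagen-rich clusters, right of the dotted line, the WT points of Hes1 and Jag1 lie above the Nuc1 points without overlap, whereas the intervals of Hes1 overlap in the motile cilia-like cluster (114 and 104 CPM).

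Nrarp was also lower in Nuc1 in the collagen-rich clusters, where its level was low in both libraries. Together they had 122 UMIs in WT and 19 in Nuc1, or 4.18 CPM (3.47 to 4.996) against 0.837 CPM (0.504 to 1.31), a log2 ratio of −2.32 (−3.10 to −1.62). The log2 ratio was −2.32 in cluster 0 (30 and 4 UMIs), −2.37 in cluster 1 (45 and 4 UMIs), −1.73 in cluster 5 (28 and 5 UMIs) and −1.23 in cluster 2 (19 and 6 UMIs), where the interval reached 0.16. In the oligodendrocyte lineage-like cluster Nrarp had 70 UMIs in WT and 5 in 10 Nuc1 cells, 89.0 against 46.8 CPM (15.2 to 109), a log2 ratio of −0.93 whose interval of −2.59 to 0.36 includes 0. In the motile cilia-like cluster it had 5 and 7 UMIs, 11.9 and 3.15 CPM, with an interval of −3.79 to 0.08. Clusters 8 (0 and 2 UMIs) and 9 (2 and 1 UMIs) were too sparse to compare. The interval thus lay below 0 in the astrocyte-like and in 3 of the 5 collagen-rich clusters. Cluster 2 also passed the 2-fold limit, but with an interval that includes 0. In the remaining clusters a lower level was not detectable at this depth.

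Hes1 fell furthest in absolute level in the collagen-rich clusters. Together they had 13680 UMIs in WT and 1989 in Nuc1, or 469 CPM (461 to 477) against 87.6 CPM (83.8 to 91.5), a log2 ratio of −2.42 (−2.49 to −2.35). Of the 12384 genes with at least 20 UMIs there, 0.775% had a lower ratio, 5.06% were called lower and 6.89% higher, and the median log2 ratio was 0.03. Cluster by cluster, Hes1 went from 643 to 109 CPM in cluster 0, from 369 to 88.8 in cluster 1, from 529 to 94.8 in cluster 2, from 251 to 69.2 in cluster 4 and from 320 to 66.6 in cluster 5. The log2 ratios ran from −2.56 (cluster 0) to −1.86 (cluster 4), so Hes1 was called lower in all 5. Of all genes with at least 20 UMIs, 5.96%, 6.10%, 5.17%, 4.09% and 4.27% were called lower in clusters 0, 1, 2, 4 and 5, and 3.83%, 3.22%, 4.51%, 9.40% and 3.17% higher. In the unnamed cluster 8 it went from 410 to 198 CPM, a log2 ratio of −1.05 (−1.38 to −0.72), beside 6.34% of genes called lower and as many higher. The motile cilia-like cluster differed: 114 CPM (84.4 to 152) in WT and 104 CPM (90.8 to 118) in Nuc1, a log2 ratio of −0.14 (−0.59 to 0.34), where 5.08% of genes were called lower and 8.06% higher. In the oligodendrocyte lineage-like cluster Hes1 had 24 UMIs in WT and 0 in Nuc1, which with 10 Nuc1 cells allows up to 28.1 CPM at a limit of 3 counts, so no difference was detectable there (13.0% of genes were called lower and 7.86% higher). Over all cells kept, Hes1 went from 423 to 74.1 CPM and Nrarp from 8.15 to 1.76 CPM, beside 6.19% of genes called lower and 10.3% higher.

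The difference in Hes1 ran through the cells rather than through a few of them. After thinning, 88.1% (86.4 to 89.7) of WT collagen-rich cells had a Hes1 UMI, with a median of 4 UMIs per cell, and 45.4% (42.4 to 48.4) of Nuc1 cells, with a median of 0 (91.6% and 56.8% unthinned). Cells with 5 or more Hes1 UMIs made up 45.2% of WT and 3.21% of Nuc1 collagen-rich cells. Thinning left out 252 WT and 174 Nuc1 of these cells.

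**Figure D3:**
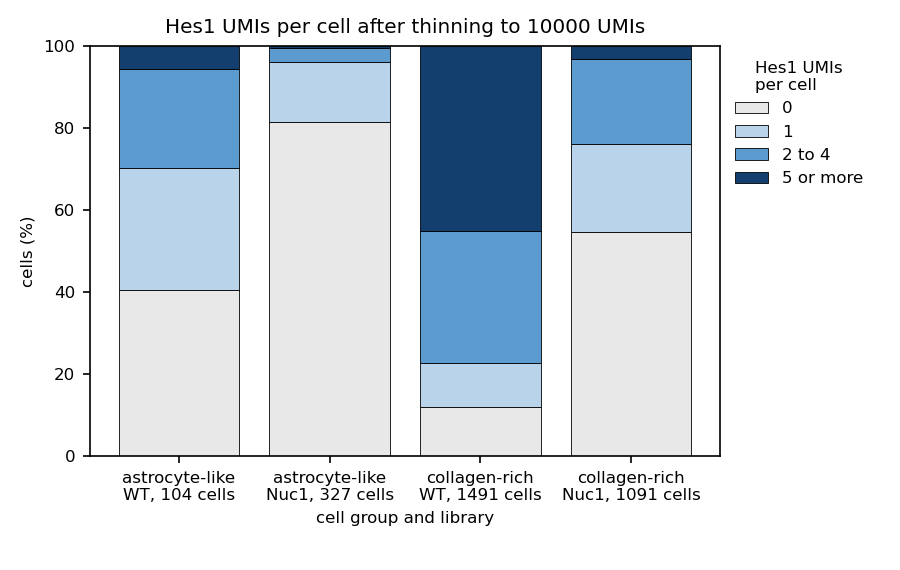
Share of cells (%) with 0, 1, 2 to 4, or 5 or more Hes1 UMIs after each cell was thinned to 10000 UMIs, for astrocyte-like and collagen-rich cells of the WT and Nuc1 libraries. In the WT collagen-rich cells 45.2% hold 5 or more Hes1 UMIs, in the Nuc1 collagen-rich cells 3.21%.

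The remaining targets were sparse in the collagen-rich clusters. Heyl had 29 UMIs in WT and 2 in Nuc1, 0.995 against 0.0881 CPM, a log2 ratio of −3.50 (−6.61 to −1.51). Within cluster 1, which held most of them, it had 23 UMIs in 19 WT cells and 1 UMI in Nuc1, a log2 ratio of −3.41 (−8.77 to −0.78). Hey2 had 12.6 CPM (11.3 to 13.9) in WT and 6.08 CPM (5.11 to 7.18) in Nuc1, a log2 ratio of −1.05 (−1.34 to −0.76), but the clusters were not alike. The log2 ratio of Hey2 was −2.35 (−3.22 to −1.59) in cluster 1, −1.55 in cluster 4 and −1.53 in cluster 5, and −0.39 (−0.995 to 0.19) and 0.19 (−0.47 to 0.85) in clusters 0 and 2. Hey1 had 5 UMIs in WT and 0 in Nuc1, and Hes5 had none. All 3 of the other targets with at least 20 UMIs in these clusters (Hes1, Heyl and Hey2) were called lower, beside 5.06% of all genes, but in cells scored as G1 Hey2 was at −0.83 and 2 of 3 were called.

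Jag1, the ligand of the collagen-rich cells, was lower in Nuc1 with the targets there. It had 2465 UMIs in WT and 665 in Nuc1, or 84.5 CPM (81.2 to 87.9) against 29.3 CPM (27.1 to 31.6), a log2 ratio of −1.53 (−1.66 to −1.41). The log2 ratio was −1.88 in cluster 0, −1.50 in cluster 1, −2.13 in cluster 2, −1.16 in cluster 5 and −0.82 (−1.27 to −0.35) in cluster 4, so that 4 of the 5 passed the 2-fold limit. In cluster 8 Jag1 went from 43.5 to 17.5 CPM, a log2 ratio of −1.32 (−2.52 to −0.20). In astrocyte-like cells it was low in both libraries, with 31 UMIs and 11.2 CPM (7.58 to 15.8) in WT and 77 UMIs and 8.61 CPM (6.80 to 10.8) in Nuc1, a log2 ratio of −0.37 whose interval of −0.99 to 0.28 includes 0. In the motile cilia-like cluster, with 6 and 20 UMIs, the interval of −2.04 to 0.93 included 0 too.

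The receptors did not share the size of these differences. In astrocyte-like cells Notch1 had a log2 ratio of −0.84 (−0.98 to −0.69) and Notch2 of −0.53 (−0.76 to −0.30), from 81.6 to 56.4 CPM, with 9.71% and 18.9% of genes lower. In the collagen-rich clusters Notch1 had a log2 ratio of 0.25 (0.06 to 0.44), from 16.4 to 19.5 CPM, and Notch2 of −0.18 (−0.28 to −0.08), from 69.9 to 61.7 CPM. Of the 5 clusters, the interval of Notch1 excluded 0 in cluster 4 alone, where it went from 15.5 CPM (11 UMIs) to 32.0 CPM (182 UMIs), a log2 ratio of 1.04 (0.17 to 2.07). In clusters 0, 1, 2 and 5 its log2 ratio lay between −0.25 and 0.28. In the motile cilia-like cluster Notch1 was lower, 105 against 56.2 CPM, a log2 ratio of −0.90 (−1.41 to −0.37).

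Rbpj (ENSRNOG00000046327), the partner of the receptors in the nucleus, was higher in Nuc1. In astrocyte-like cells it had 23.4 CPM (18.0 to 29.8) in WT and 35.4 CPM (31.7 to 39.6) in Nuc1, a log2 ratio of 0.60 (0.21 to 1.01), or 0.06 with an interval that includes 0 at most 10% mitochondrial UMIs. Over the collagen-rich clusters together it was 1.28 (1.18 to 1.39), but within each it was smaller, between 0.32 (cluster 4) and 0.90 (cluster 1), all with intervals above 0. Cluster 4, with 54 WT and 367 Nuc1 cells, had more Rbpj than the others, 162 CPM in WT and 202 CPM in Nuc1, against 32.0 to 41.1 CPM in the other WT collagen-rich clusters. No single collagen-rich cluster passed the 2-fold limit for Rbpj.

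**Figure D4:**
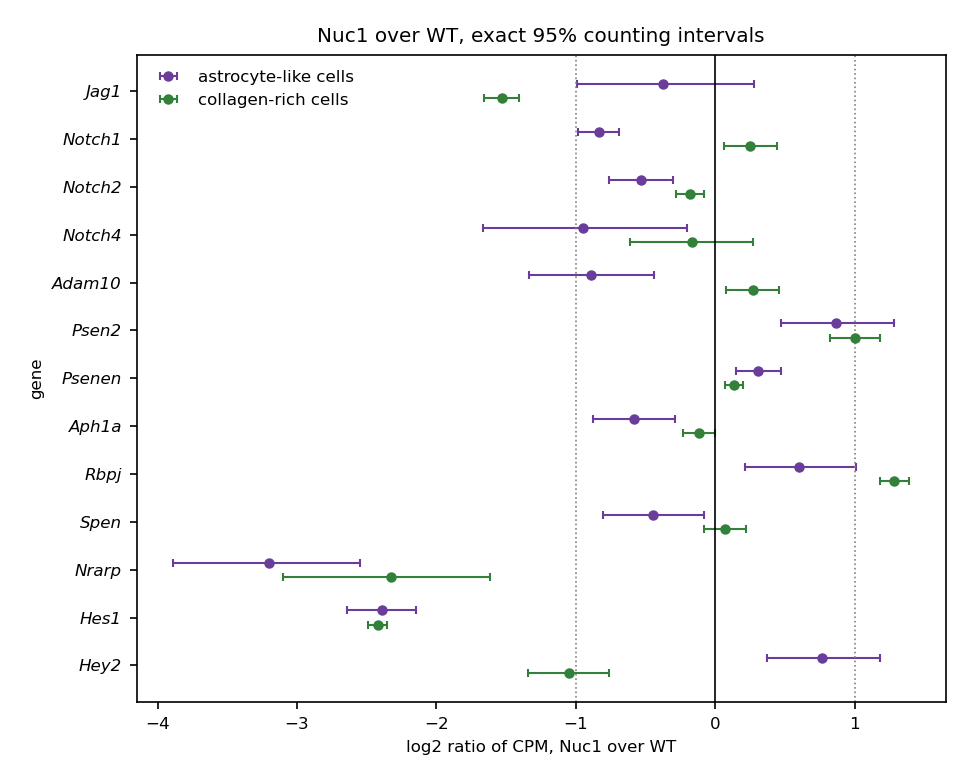
Log2 ratio of CPM, Nuc1 over WT, with exact 95% counting intervals (1 library per genotype) for genes of the Notch pathway in astrocyte-like cells and in the 5 collagen-rich clusters together; dotted lines mark 2-fold. Among the genes plotted, which leave out Heyl, Nrarp and Hes1 lie furthest to the left in both groups, Hey2 lies left of 0 in the collagen-rich clusters (−1.05) and right of 0 in the astrocyte-like cells (0.77), and Rbpj lies to the right of 0 in both.

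The wider pathway did not move as a block. Beside the 10 genes, 40 further genes of the pathway were listed (other ligands and receptors, enzymes that process receptors or carry ligands, and the nuclear complex), of which 38 were in the data. In astrocyte-like cells 28 of these 38 had at least 20 UMIs, 1 was called lower (Numb, from 2.88 to 1.34 CPM) and 1 higher (Neurl1, from 2.16 to 5.03 CPM), both with intervals that include 0, and their median log2 ratio was −0.14, beside −0.12 for all genes. Genes with an interval below 0 included the receptor Notch4 (log2 ratio −0.95), the protease Adam10 (−0.89), the γ-secretase subunit Aph1a (−0.59) and the corepressor Spen (−0.45). Those with an interval above 0 were the γ-secretase subunits Psen2 (0.87) and Psenen (0.31), beside Rbpj and Hey2. In the collagen-rich clusters 32 had at least 20 UMIs, 1 was called lower (Hey2) and 4 higher (Dlk2, Psen2, Dtx4 and Rbpj), beside 5.06% and 6.89% of all genes, and their median log2 ratio was 0.05, beside 0.03 for all genes. These calls are for the clusters together, which the libraries filled unevenly. Within single collagen-rich clusters Rbpj was called higher in none, Psen2 in clusters 2 (1.33) and 5 (1.22), and Dtx4 in cluster 4 (1.58). Dlk2 reached 20 UMIs in none of them. Psen2, a catalytic subunit of γ-secretase, was higher in both groups, as Rbpj was, with 14.5 CPM in WT and 29.0 CPM in Nuc1 in the collagen-rich clusters, and 21.9 and 40.03 CPM in astrocyte-like cells. Adam10 had the opposite sign in the collagen-rich clusters (0.27, interval 0.08 to 0.46), and Notch4 had −0.17 (−0.61 to 0.27).

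Within a library, which cells carried Nrarp was also compared, without use of the genotypes. In WT astrocyte-like cells the 29 cells with a UMI of Nrarp had 162 CPM of Hes1 (136 to 192) and the 77 without had 115 CPM (101 to 132), a log2 ratio of 0.49 (0.17 to 0.81), and Hey2 differed in the same direction by 0.80 (0.02 to 1.57). Among Nuc1 astrocyte-like cells Hes1 was at 23.3 CPM in the 20 cells with Nrarp and 24.7 CPM in the 329 without, a log2 ratio of −0.08 (−1.01 to 0.73). For Hey2 the log2 ratio in these Nuc1 cells was −0.01 (−0.72 to 0.63). For Notch1 the interval included 0 in both libraries. The cells with Nrarp had more of Top2a, a gene of dividing cells, at 78.6 against 36.6 CPM in WT and 71.8 against 2.74 CPM in Nuc1, and more of Olig1, at 138 against 76.3 CPM in WT and 95.2 against 39.2 CPM in Nuc1. Their median depth was higher too, 27912 against 24781 UMIs in WT. In the WT oligodendrocyte lineage-like cluster, 24 cells had a UMI of Nrarp and 28 had none. The log2 ratio there was 0.50 (0.06 to 0.94) for Notch1, 1.12 (−0.28 to 2.74) for Hes1 and 1.89 (1.46 to 2.35) for Top2a.

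In the collagen-rich clusters the 100 WT cells with Nrarp had 483 CPM of Hes1 and the 1643 without had 468 CPM, a log2 ratio of 0.05 (−0.05 to 0.14). Hey2 differed, at 22.5 against 11.8 CPM, a log2 ratio of 0.93 (0.46 to 1.37), and Notch1 had 0.43 (−0.04 to 0.87). These 100 cells had 17.3 CPM of Bcas1, an oligodendrocyte lineage gene, against 1.07 CPM in the others. In the 18 Nuc1 cells with Nrarp the log2 ratio over the others was −0.03 (−0.46 to 0.37) for Hes1 and 0.96 (−0.38 to 2.05) for Hey2. For Notch1 it was 1.07 (0.41 to 1.66). These 18 cells had 404 CPM of Gfap against 19.4 CPM, and a median of 33046 UMIs against 15064. Markers of other cell types thus came with Nrarp in collagen-rich cells, and their part in its level there was not tested. Across the 18 combinations of cluster and library with at least 20 cells, the genes most like Nrarp among 10220, by Pearson's correlation of log2(CPM + 10), were Olig1 (r = 0.91), Olig2 (0.91), Plpp4 (0.89), Hip1r (0.88) and Bcas1 (0.88), while Notch1 had 0.62 and Hes1 −0.35. These points share their libraries, depth and clustering, and the order is a description.

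Other lists moved with the lower targets in Nuc1. The summed level of the immediate-early genes, 20 of 21 of which are in the data, went from 5157 to 2334 CPM in astrocyte-like cells, where 12 of the 18 with at least 20 UMIs were called lower, beside 7.24% of all genes, among them Nr4a1 (log2 ratio −2.39) and Socs3 (−2.78). In the collagen-rich clusters it went from 8135 to 4470 CPM, with 7 of 20 called lower, beside 5.06% of all genes. In the motile cilia-like cluster, where the interval of Hes1 included 0, it went from 4425 to 3527 CPM, with 5 of 16 called lower, beside 5.08%. The genes of dividing cells went from 1321 to 520 CPM in astrocyte-like cells, with 32 of 34 called lower, beside 7.24%. Within cells scored as G1 there, 84 WT and 325 Nuc1, the log2 ratio of Nrarp was −3.27 (−4.00 to −2.59) and that of Hes1 −2.47 (−2.74 to −2.19). The S cells (8 WT and 15 Nuc1) had 8 and 0 Nrarp UMIs, and the G2M cells (14 and 9) had 4 and 2, a log2 ratio of −0.35 with an interval of −3.81 to 2.46, while Hes1 was at −1.46 (−2.24 to −0.69) and −2.12 (−3.51 to −0.97) there. The fibroblast list went from 2667 to 1232 CPM in astrocyte-like cells, with 7 of 16 called lower and 0 higher, beside 7.24% and 4.12% of all genes. With cells of over 300 CPM of Col1a1, Col3a1, Dcn and Lum together left out, the log2 ratio was −3.06 for Nrarp and −2.48 for Hes1. Olig1 went from 94.2 to 42.7 CPM there, and Nrarp had a log2 ratio of −2.83 (−3.71 to −2.01) in cells with a UMI of Olig1 and −3.62 (−4.84 to −2.52) in cells without. The Y-linked genes Eif2s3y and Kdm5d had 0 UMIs in WT and 24.3 CPM in Nuc1 astrocyte-like cells, and 0.103 and 34.6 CPM in the collagen-rich clusters. Nuc1 cells without a UMI of either gave a log2 ratio of −3.14 for Nrarp and −2.41 for Hes1, although a cell with no such UMI may still carry these genes. In the collagen-rich clusters the mural list went from 2568 to 979 CPM. There 6 of 13 were called lower and 4 higher, beside 5.06% and 6.89% of all genes. The fibroblast list there went from 17804.5 to 11892 CPM, with 5 of 18 called lower and 2 higher. Col1a1, Col3a1, Dcn and Lum, which define these clusters, went from 11116 to 6669 CPM, with 2 of 4 called lower and 0 higher. The astrocyte list there went from 3018 to 2982 CPM, with 0 of 15 called lower and 7 higher. In astrocyte-like cells 5 of 10 mural genes were called lower and 1 higher, beside 7.24% and 4.12%. In the astrocyte-like cells the summed oligodendrocyte lineage list went from 796 to 842 CPM. Of its 10 genes with at least 20 UMIs, 4 were called lower and 0 higher, beside 7.24% and 4.12% of all genes. Among the 4 were Olig2 (25.2 to 6.49 CPM) and Bcas1 (22.3 to 2.24 CPM). The macrophage or microglia list there went from 161 to 147 CPM, with 0 of 2 called lower or higher. The motile cilia list went from 464 to 797 CPM in astrocyte-like cells, with 13 of 25 called higher beside 4.12% of all genes. The astrocyte list there went from 48670 to 65751 CPM, with 3 of 18 called higher and 1 lower. In the collagen-rich clusters the summed neuron list went from 779 to 332 CPM. Of its 7 genes with at least 20 UMIs, 2 were called lower and 2 higher, beside 5.06% and 6.89% of all genes. The median log2 ratio of these 7 was 0.70. The part of these lists in the differences was not tested, and genotype, sex, culture and library cannot be told apart with 1 library each.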

How the data were processed

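The authors made libraries with the 10x Genomics 3′ kit (v3.1), demultiplexed reads with Cell Ranger 3.1.0, aligned them with STAR 2.7 and deposited, for each library, raw UMI counts per gene and barcode without normalization. Their own filters and clustering (Seurat 3.1.0 and 3.1.1) are not in these counts, and the genome build is not given in the sources used here. With 3′ capture each molecule is counted once, so counts were not scaled by gene length, and levels were compared within a gene. The number of captured cells aimed at was 3000 per library, from 5092 (WT) and 5125 (Nuc1) loaded cells.

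Cells were kept here if they had 500 or more genes and no more than 20% of their UMIs came from 13 mitochondrial genes, and doublets called by Scrublet (scanpy 1.11.5, expected rate 2%) were left out, 5 WT and 11 Nuc1 cells. This is 0.254% and 0.613% of cells, so doublets can remain. Libraries were integrated by anchors and clustered in Seurat 5.3.0 (R 4.3.3) with 2000 variable genes, 30 components and resolution 0.5. A cluster was called X-like when at least 3 of its 10 leading genes, ranked by fold over the other clusters' mean with 20 CPM added to both, were in a marker list. UMIs were summed per group and library. No p-value was computed, since 1 library per genotype allows none. For calls over all genes a sum of 0 was put at 0.5. The calculation of the intervals was checked on simulated Poisson counts. The intervals assume such counts, so this check cannot tell how they cover clumping of UMIs in cells or spread between libraries. Of the 38 further pathway genes, those named are Notch4, Dll4, Jag2, Hey2, Rbpj, those whose interval excluded 0 in astrocyte-like cells, and, chosen after their values were seen, those called past 2-fold, except for items that are not reported here. The members, gene lists and marker lists were chosen with earlier results of these data known. Alternatives included edgeR 4.0.16 and DESeq2 1.42.0 size factors, filters, resolutions, thinning and cell subsets.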

Additional observations from a re-analysis of the deposited data

Results flagged for a closer look

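Notch1 had opposite signs in different clusters, with intervals that exclude 0. In cluster 4 the log2 ratio (Nuc1 over WT) was 1.04 (0.17 to 2.07), from 11 WT and 182 Nuc1 UMIs, and it was −0.90 (−1.41 to −0.37) in the motile cilia-like cluster 6, from 44 and 125 UMIs. Hey2 had a log2 ratio of 0.77 (0.37 to 1.18) in the astrocyte-like cluster 3 and −2.35 (−3.22 to −1.59) in cluster 1. For both genes the difference was not tested, since there is 1 library per genotype.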

How the results depend on the processing

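No paired analysis was possible because there is only 1 library of WT and 1 of Nuc1. Nrarp stayed lower past 2-fold, with an interval below 0, in all 14 alternatives in astrocyte-like cells (log2 ratio −3.30 to −2.61) and all 13 in the collagen-rich clusters (−2.59 to −2.12), as did Hes1 (−2.60 to −1.66 and −2.47 to −2.32). For Hes1 in astrocyte-like cells a resolution of 0.2, which put 122 WT and 459 Nuc1 cells in the group, gave −1.67 and no clustering gave −1.66; in the collagen-rich clusters a limit of 10% mitochondrial UMIs gave −2.32. The cause was not tested. In astrocyte-like cells 3 of the 5 other targets were called lower with a minimum of 1 UMI and a sum of 0 put at 0.5. These included Hes5 (1 WT and 0 Nuc1 UMIs) and Hey1 (2 and 3 UMIs), too few to read. At the minimum of 20 UMIs it was 1 of 2, beside 7.24% of all genes. The median log2 ratio of the other targets was −1.23 at 10% mitochondrial UMIs. Jag1 in astrocyte-like cells ran from −1.70 (10% mitochondrial UMIs, 27 WT cells) to 0.85 (thinned, 6 WT UMIs), so its direction there was not settled. Notch1 there ran from −0.90 to −0.41, and Hey2 and Rbpj stayed above 0, down to 0.14 and 0.06 at 10% mitochondrial UMIs. Hey2 in the collagen-rich clusters was past 2-fold in 12 of 13 alternatives (−0.83 in G1 cells). Between 2 and 4 of the other targets were called lower there, beside 5.06% of all genes in the main setting. The count of 4 came with a minimum of 1 UMI and included Hey1, with 5 WT and 0 Nuc1 UMIs. No called value changed sign. The WT astrocyte-like cells are 106, so a gene under 1.08 CPM there is below the limit of 3 counts, and Hes5, Hey1, Heyl and Notch3 were too sparse to compare. The alternatives for single genes other than Nrarp were added after the data were seen, and leaving out cells rich in Col1a1, Col3a1, Dcn and Lum was run for the astrocyte-like cells only.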
